A study of Mus musculus with 32 samples.

Results

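The 42 genes described here handle amino acid supply in the cell: 20 cytosolic aminoacyl-tRNA synthetases, 7 amino acid transporters, 8 enzymes that make amino acids or one-carbon units, and 7 genes of the ATF4 arm of the stress response. They were chosen by symbol, all 42 were found among the 21886 genes of the count table, and all 42 passed the expression filter. The cells were mouse presomitic mesoderm (PSM), the tissue that is cut into somites, made in culture from epiblast stem cells of a reporter line based on AES0204 that carries luciferase under the control of Hes7. All dishes received the same treatment, CDMi medium with SB431542 (a TGF-β receptor inhibitor), LDN193189 (a BMP receptor inhibitor), CHIR99021 (a GSK3 inhibitor, at a lower dose after the last medium change) and bFGF. In each of 2 time courses, Ex4 (155 to 405 min) and Ex5 (165 to 425 min), 16 dishes were frozen 1 by 1 and 1 library was made per dish, so the groups compared differ in the time course and in the labelled minute, not in genotype or agent. The labels do not say what event minute 0 marks, so equal minutes of Ex4 and Ex5 are equal labels and need not be equal times after the medium change.

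Aminoacyl-tRNA synthetases load each tRNA with its amino acid, and most have a cytosolic and a mitochondrial form encoded by separate genes. When amino acids run short, uncharged tRNA activates the kinase GCN2, which phosphorylates the initiation factor eIF2; most translation then slows, while the mRNA of the transcription factor ATF4 is translated more. ATF4, paired with C/EBP proteins, binds a composite element in front of many transporter, synthesis and synthetase genes. Since ATF4 is set largely at translation, the level of its mRNA need not follow that of the protein.

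That element was searched as TGATGNAA on both strands in the 250 bases before each RefSeq start (GRCm38.p6). It was present in 7 of the 31 members that have a promoter entry (22.6%), among them Asns, Chac1, Gars, Pycr1, Slc7a11 and Tars, against 2.23% of 9324 tested genes and 3.91% of all 27025 promoters of the table. A match is a description of the letters and not a measured site. The members were listed partly as ATF4 targets, so a share above that of all tested genes was in part built into their choice. Of the genes with a match, Chac1 had no slope difference past the test (edgeR, adjusted p = 0.859). The stretches below are from 4 of these genes whose slopes differed between the time courses; capitals mark the match, read along the gene (TTTCATCA in Gars and TTGCATCA in Slc7a11 are matches on the other strand), and the Slc7a11 stretch holds 2 matches.
Asns, chr6:7693214-7693243, - strand: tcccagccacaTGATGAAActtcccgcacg
Gars, chr6:55037931-55038000, + strand: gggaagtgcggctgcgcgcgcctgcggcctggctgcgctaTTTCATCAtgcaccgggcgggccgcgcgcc
Pycr1, chr11:120643804-120643891, - strand: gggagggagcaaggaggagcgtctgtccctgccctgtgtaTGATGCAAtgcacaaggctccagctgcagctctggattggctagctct
Slc7a11, chr3:50443615-50443719, - strand: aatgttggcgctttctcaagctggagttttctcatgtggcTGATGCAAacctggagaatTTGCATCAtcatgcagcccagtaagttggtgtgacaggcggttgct
The Asns stretch lies inside an exon annotated by GENCODE M21, and the other 3 lie outside its exons.

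Each Ex4 library holds 19.3 to 29.5 M gene counts and each Ex5 library 16.1 to 28.6 M, and the shallowest library of each came late in its course, at 385 and 365 min. The part of depth in the slopes was not tested. PSM markers were high in every library, with 10 of 10 tested and a summed level of 3063 to 3743 CPM (counts scaled to library size with TMM factors) in Ex4 and 3630 to 4321 CPM in Ex5. Summed neural markers were at 61.8 to 77.6 CPM in Ex4 and 42.8 to 76.0 CPM in Ex5, epiblast markers at 76.7 to 183 and 45.9 to 133 CPM. Endoderm markers summed to at most 2.35 CPM, with Cer1 at a median of 0, lateral, intermediate and vascular mesoderm markers to at most 16.5 CPM, with Osr1 at a median of 0, and somite markers to at most 6.40 CPM. In whole dishes, fewer cells that use a gene and less RNA per cell cannot be told apart.

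Slopes are log2 changes per 100 min from a fit of each gene to a level and a straight line per time course, with shared terms for the Hes7 cycle, and adjusted p-values come from edgeR's quasi-likelihood F test with Benjamini-Hochberg adjustment over 11768 genes. In Ex4 the 42 genes were nearly level: 6 rose and 1 fell, or 14.3% and 2.38% of them, where 16.9% of all tested genes rose and 15.5% fell. Together these 7 are 16.7% of the members, below the 32.5% of all tested genes. In Ex5, 19 fell and 7 rose, and these 26 are 61.9% of the members, against 51.2% of all tested genes. The falling share was 45.2%, against 25.3% of all tested genes, and the rising share was 16.7%, against 25.9%. The difference of the slopes, Ex5 minus Ex4, passed the test for 20 members (47.6%) where 16.1% of all tested genes passed. It was negative in 19 of these 20, against 9.06% of all tested genes with a negative and 7.02% with a positive difference. The median slope difference was -0.063 log2 per 100 min over the 42 genes and 0.0007 over all tested genes. At 285 min, the centre of the fit, 28 members were higher in Ex5 and 4 lower; 27.4% of all tested genes were higher and 27.7% lower. These 32 are 76.2% of the members, against 55.1% of all tested genes. The median level difference was 0.16 log2 for the members and -0.0021 for all tested genes. All levels given for 285 min are values of the fitted straight lines. They can differ from the libraries near that minute where a course bends.

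Only Vars rose in both time courses and only Asns fell in both, against 11.5% and 10.5% of all tested genes. A further 21 members changed in Ex5 alone, Sars and Psat1 passed in Ex4 alone, 3 passed with opposite directions (Iars, Slc1a4 and Aldh18a1 rose in Ex4 and fell in Ex5), and 14 passed in neither. Passing in 1 time course and not in the other is no test of a difference; the slope difference is that test. PSM markers moved too, with 6 of 10 falling and 3 rising in Ex5, 5 of 10 with a slope difference, all negative, and 6 higher and 4 lower in Ex5 at 285 min. Both tested epiblast markers fell in both courses and were lower in Ex5, as were both tested somite markers in level. Of 5 neural markers 3 were lower and 1 higher in Ex5, and both tested lateral, intermediate and vascular mesoderm markers had a negative slope difference. Mitochondrial genes took 0.324 to 0.682% of counts in Ex4 and 0.250 to 0.411% in Ex5. The part of these markers and shares in the results for the 42 genes was not tested. Since each time course is 1 series of dishes, the p-values measure the spread of dishes around the fitted lines, and time course and culture batch cannot be told apart.

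**Figure D1:**
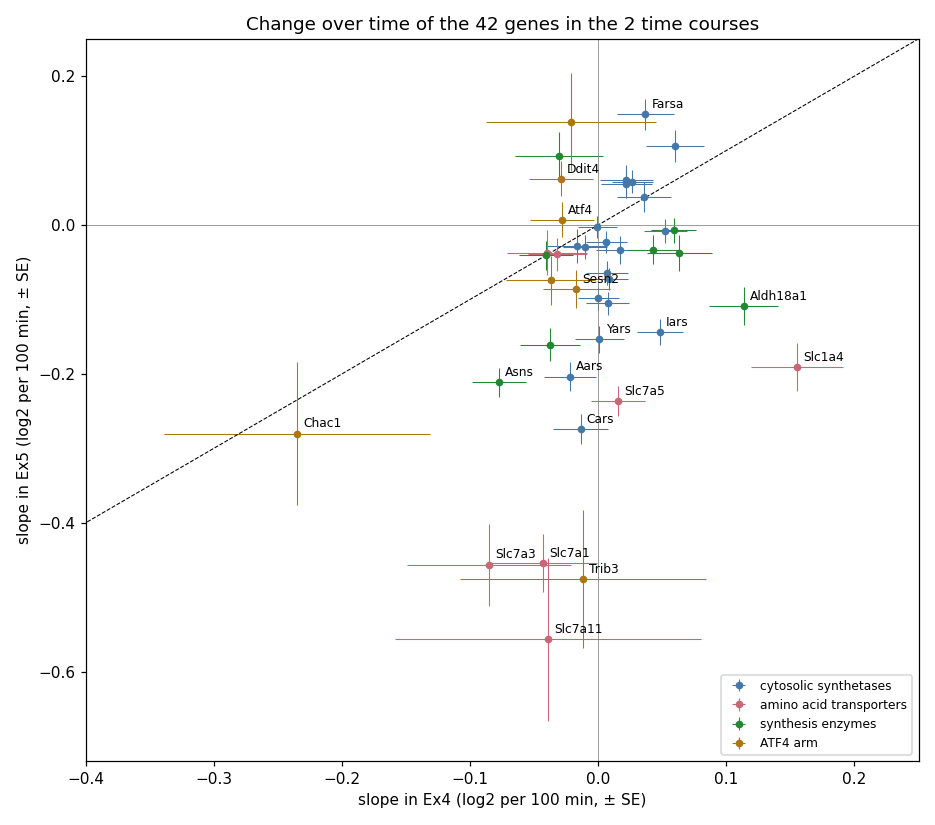
Slope in Ex5 (y axis) against slope in Ex4 (x axis) for each of the 42 genes, both in log2 per 100 min with bars of ± 1 standard error and colours for the 4 roles; the dashed line marks equal slopes. Most points gather near 0 on the x axis and spread downward on the y axis, with Slc7a11, Trib3, Slc7a1 and Slc7a3 lowest.

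The transporters differed most. All 7 were higher in Ex5 at 285 min, 5 of 7 fell in Ex5, and the same 5 (Slc7a1, Slc7a3, Slc7a5, Slc7a11 and Slc1a4) had a negative slope difference. Over all tested genes these shares were 27.4%, 25.3% and 9.06%. Slc7a1 (CAT1), which imports arginine and lysine, was at 31.2, 33.3 and 37.9 CPM (lowest, median, highest of 16 libraries) in Ex4 and at 34.7, 43.0 and 86.7 CPM in Ex5. The Ex5 maximum was its first library, at 165 min, and the minimum came at 385 min, where the level had reached the Ex4 range. Its slope was -0.043 ± 0.042 (SE) log2 per 100 min in Ex4 and -0.45 ± 0.039 in Ex5, a difference of -0.41 ± 0.055 (edgeR, adjusted p = 2.33e-06). Over the 260 min of Ex5 the fitted level ended at 0.441 times its start.

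Slc7a3 (CAT3), is a second carrier of cationic amino acids. It was at 3.53, 4.53 and 5.48 CPM in Ex4 and 4.38, 8.29 and 11.7 CPM in Ex5, where only the late libraries came down to the Ex4 range. The level difference at 285 min was 0.90 ± 0.063 log2, a 1.86-fold higher level in Ex5 (adjusted p = 4.72e-15, edgeR), the widest of the 42 genes. The slope difference was -0.37 ± 0.082 log2 per 100 min (edgeR, adjusted p = 0.00171).

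Slc1a4 (ASCT1) carries serine, alanine and cysteine. Its values were 60.4, 70.2 and 82.6 CPM in Ex4 and 90.7, 95.2 and 149 CPM in Ex5, so that every Ex5 library lay above every Ex4 library. It rose in Ex4 (0.16 ± 0.036 log2 per 100 min, edgeR, adjusted p = 0.000863) and fell in Ex5 (-0.19 ± 0.033, edgeR, adjusted p = 8.07e-06). The fall lay in the first part of Ex5. After its lowest value at 255 min the level stayed flat, and without the first 4 time points of each time course the Ex5 slope was -0.046 (edgeR, adjusted p = 0.297). The slope difference then was -0.22 in place of -0.35 log2 per 100 min (edgeR, adjusted p = 0.00621 and 2.33e-06).

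Slc7a5 (LAT1) brings in leucine and other large neutral amino acids, and works only in a pair with the heavy chain Slc3a2 (4F2hc). It was at 133, 142 and 148 CPM in Ex4 and at 141, 164 and 216 CPM in Ex5. Ex4 was flat (0.015 ± 0.021 log2 per 100 min), Ex5 fell (-0.24 ± 0.020), and the difference was -0.25 ± 0.028 (edgeR, adjusted p = 1.04e-07). The partner Slc3a2 was at 127, 138 and 148 CPM in Ex4 and 138, 157 and 180 CPM in Ex5, and its slope difference was 0.0024 ± 0.042 log2 per 100 min, with a 95% interval from -0.083 to 0.088 (edgeR, adjusted p = 0.976). Its Ex5 values were highest in the middle of the course, at 255 min, and without the first 4 time points the Ex5 slope of Slc3a2 was -0.18 (edgeR, adjusted p = 2.07e-06). In Ex5 the light chain was thus highest at 165 min, where the heavy chain, with 138 CPM, was at the low end of its own range.

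Slc7a11 (xCT), which trades glutamate for cystine and also pairs with Slc3a2, was scarce, with 10 to 56 counts per library. It was at 0.649, 0.954 and 1.49 CPM in Ex4 and 0.579, 1.38 and 2.37 CPM in Ex5, and the groups overlapped widely. The slope difference was -0.52 ± 0.16 log2 per 100 min (edgeR, adjusted p = 0.0218), and it missed the threshold without the Ex4 library of time point 15 or 16 (-0.43 and -0.48, edgeR, adjusted p = 0.0716 and 0.0547). Slc1a5 (ASCT2), the glutamine carrier, was higher in Ex5 by 0.24 ± 0.024 log2 and had a slope difference of -0.0075 ± 0.031, with an interval from -0.069 to 0.055. Slc1a5 thus differed in level at 285 min, with no slope difference past the test.

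**Figure D2:**
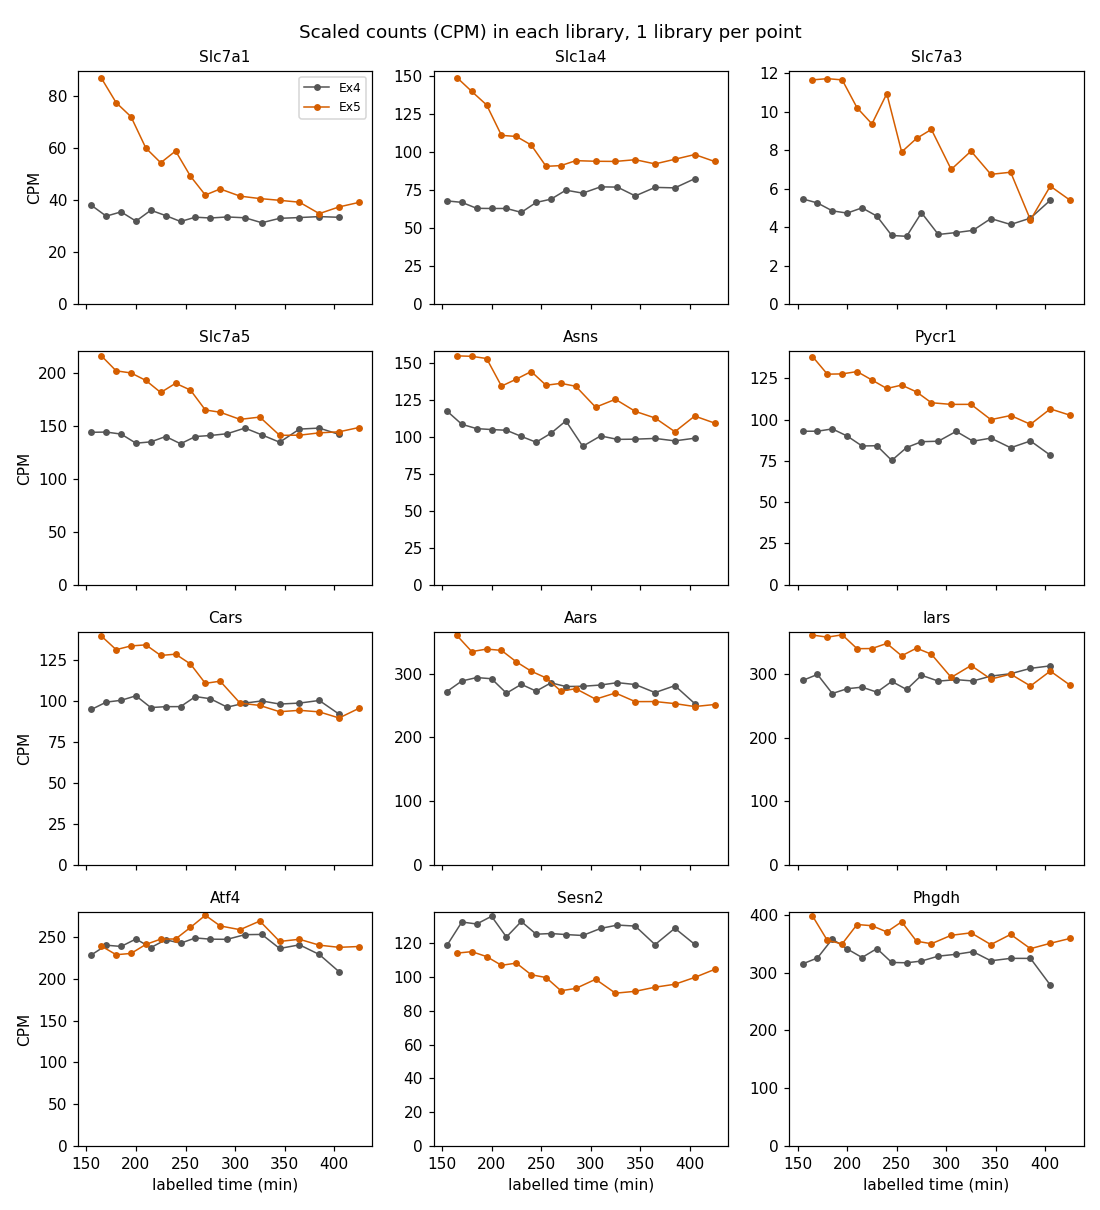
Scaled counts (CPM, y axes from 0) of 12 members against the labelled minute (x axes), 1 point per library, Ex4 in grey and Ex5 in orange. Slc7a1, Slc1a4 and Cars start high in Ex5 and come down to or toward the Ex4 level, Atf4 stays between 208 and 276 CPM in both courses, and Sesn2 lies lower in every Ex5 library than in any Ex4 library.

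By the fitted lines the synthesis enzymes were all higher in Ex5 at 285 min (8 of 8), and 5 of 8 had a negative slope difference. The shares over all tested genes were 27.4% and 9.06%. Asns makes asparagine from aspartate and glutamine and is a textbook target of ATF4. It was at 93.8, 101 and 118 CPM in Ex4 and 104, 135 and 155 CPM in Ex5, with overlap only in the late Ex5 libraries. It fell in both courses, by 0.077 ± 0.021 log2 per 100 min in Ex4 (edgeR, adjusted p = 0.0045) and by 0.21 ± 0.020 in Ex5 (edgeR, adjusted p = 5.59e-11), a slope difference of -0.13 ± 0.028 (edgeR, adjusted p = 0.00103). The Ex4 slope of Asns was -0.038 without the first 4 time points of each course (edgeR, adjusted p = 0.432).

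Proline synthesis runs from glutamate through Aldh18a1 and then Pycr1. Pycr1 was at 75.3, 86.9 and 94.3 CPM in Ex4 and 97.1, 113 and 138 CPM in Ex5, without overlap. Its level difference was 0.41 ± 0.024 log2, or 1.33-fold (edgeR, adjusted p = 2.94e-17), the smallest p among the 42 genes for level, and its slope difference was -0.12 ± 0.031 log2 per 100 min (edgeR, adjusted p = 0.00565). Aldh18a1 was at 80.7, 89.7 and 108 CPM in Ex4 and 86.9, 103 and 115 CPM in Ex5. The 2 courses crossed, since it rose in Ex4 (0.11 ± 0.027) and fell in Ex5 (-0.11 ± 0.025), a difference of -0.22 ± 0.035 log2 per 100 min (edgeR, adjusted p = 3.01e-05).

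Serine is made from a glycolytic intermediate by Phgdh, Psat1 and Psph in turn. Phgdh was at 278, 325 and 358 CPM in Ex4 and 341, 362 and 398 CPM in Ex5, with slopes of -0.041 log2 per 100 min in both and a difference whose 95% interval ran from -0.057 to 0.056. Psat1 was at 406, 442 and 494 CPM in Ex4, where it rose by 0.059 ± 0.017 log2 per 100 min (edgeR, adjusted p = 0.00832), and at 492, 514 and 553 CPM in Ex5, where its slope was -0.0071 ± 0.017. The ranges of Psat1 touched only at their ends. The slope difference of Psat1, -0.066 ± 0.023, was just past the threshold (edgeR, adjusted p = 0.0468). It missed the threshold when any 1 of 21 libraries was left out (up to 0.149 without the Ex5 library of time point 16). With the time point number as a block it missed too (0.0714). Without the first 4 time points of each course it was -0.13 and passed (edgeR, adjusted p = 0.0173). Psph, the last step, rose in Ex5 (0.093 ± 0.033 log2 per 100 min, edgeR, adjusted p = 0.0166) and was at -0.031 ± 0.034 in Ex4. The Ex5 slope of Psph was 0.042 without the first 4 time points (edgeR, adjusted p = 0.496). Its slope difference did not pass (0.12 ± 0.046, edgeR, adjusted p = 0.0582). All 3 enzymes of this short pathway were higher in Ex5 at 285 min.

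Shmt2 and Mthfd2 take serine into the mitochondrial one-carbon pathway. Shmt2 was higher in every Ex5 library (144 to 170 CPM) than in any Ex4 library (122 to 142 CPM), by 0.27 ± 0.021 log2 at 285 min (edgeR, adjusted p = 8.17e-14). Mthfd2 was at 68.3 to 80.5 CPM in Ex4 and 73.8 to 98.2 CPM in Ex5. Its Ex5 minimum was the library at 285 min, below the Ex4 libraries at 275 and 292 min (75.6 and 74.3 CPM). The fitted level of Mthfd2 at 285 min was still 1.11-fold higher in Ex5. Its slope difference of -0.10 ± 0.033 log2 per 100 min (edgeR, adjusted p = 0.0342) was 0.0024 without the first 4 time points of each course (edgeR, adjusted p = 0.983). It also missed the threshold with the time point number as a block (0.117) and without any 1 of 6 libraries, up to 0.109 without the Ex5 library of time point 1.

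Of the 20 cytosolic synthetases, 8 fell in Ex5 (Aars, Cars, Gars, Iars, Mars, Nars, Tars and Yars) and 5 rose (Farsa, Hars, Kars, Rars and Vars). The other 7 did neither (Dars, Eprs, Farsb, Lars, Qars, Sars and Wars). Over all tested genes 25.3% fell and 25.9% rose in Ex5, so the 5 of 20 that rose are near the general share. The rises of Hars, Kars and Rars missed the threshold without the first 4 time points, with Ex5 slopes of 0.031, 0.040 and 0.028 log2 per 100 min (edgeR, adjusted p = 0.38, 0.158 and 0.491). That of Rars also missed it with each course fitted alone and without the first or the second Ex5 library (edgeR, adjusted p = 0.055 and 0.0506). The same 8 that fell had a negative slope difference, from -0.071 ± 0.022 log2 per 100 min (Gars) to -0.26 ± 0.028 (Cars), and Farsa had a positive one of 0.11 ± 0.030 (edgeR, adjusted p = 0.00828). Of all tested genes, 9.06% had a negative and 7.02% a positive slope difference. Cars, which charges the cysteine tRNA, was at 91.9, 98.6 and 103 CPM in Ex4 and 89.5, 111 and 139 CPM in Ex5. All of its Ex5 libraries from 165 to 285 min lay above the Ex4 range, and the later ones lay within or below it. The slope difference of Cars had an adjusted p of 1.04e-07 (edgeR), among the smallest of the 42 genes.

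Aars, for alanine, was at 253, 282 and 294 CPM in Ex4 and 248, 274 and 360 CPM in Ex5. Its Ex5 slope was -0.20 ± 0.019 log2 per 100 min and its Ex4 slope -0.022 ± 0.020, a difference of -0.18 ± 0.027 (edgeR, adjusted p = 1.06e-05). The Aars gene model shares 1326 exon bases with Exosc6 on the same strand, so some of its reads cannot be assigned to 1 gene with certainty. Iars, for isoleucine, was at 269, 289 and 312 CPM in Ex4 and 281, 329 and 361 CPM in Ex5. It rose in Ex4 (0.048 ± 0.018, edgeR, adjusted p = 0.0363) and fell in Ex5 (-0.14 ± 0.017, edgeR, adjusted p = 1.16e-08), and the difference was -0.19 ± 0.024 (edgeR, adjusted p = 7.14e-07). The rise of Iars in Ex4 missed the threshold when any 1 of 8 libraries was left out, up to an adjusted p of 0.085 without the Ex4 library of time point 16 (edgeR), whereas the slope difference kept it.

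Yars had a slope difference of -0.15 ± 0.025 log2 per 100 min, Mars of -0.11 ± 0.022, Nars of -0.099 ± 0.021 and Tars of -0.081 ± 0.020, and none of these 4 changed with time in Ex4 by the test. Without the first 4 time points of each course, the differences of Farsa (0.10 log2 per 100 min), Mars (-0.11), Nars (-0.11) and Tars (-0.084) were of similar size but missed the threshold in that smaller fit, and those of Aars, Cars, Gars, Iars and Yars passed. Reads of Mars could be shared with Ddit3 (68 exon bases on the opposite strand), of Yars with C77080 (30 bases), of Hars with Hars2 (195 bases), of Farsb with Sgpp2 (248 bases), of Shmt2 with Ndufa4l2 (32 bases) and of Atf5 with Il4i1 and Nup62 (82 bases each) if counting ignored strand, which is not given in the sources used here.

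By textbook knowledge 8 of these enzymes sit together in the multisynthetase complex (Dars, Eprs, Iars, Kars, Lars, Mars, Qars and Rars), held by the scaffold proteins Aimp1, Aimp2 and Eef1e1. Within that complex, Iars and Mars fell in Ex5, Kars and Rars rose (0.058 ± 0.015 and 0.055 ± 0.019 log2 per 100 min), and Dars, Eprs, Lars and Qars passed in neither direction. Eprs was the steadiest, at 450 to 487 CPM in Ex4 and 446 to 480 CPM in Ex5, with a slope difference of -0.0017 ± 0.020 and a 95% interval from -0.043 to 0.040. Among the scaffold genes Aimp1 had a positive slope difference (0.11 ± 0.028, edgeR, adjusted p = 0.00445). Phenylalanine-tRNA synthetase is built from Farsa and Farsb; Farsa rose in Ex5 (0.15 ± 0.021, edgeR, adjusted p = 3.43e-07) and Farsb was at 0.038 ± 0.020 (edgeR, adjusted p = 0.114).

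At 285 min, 9 synthetases were higher in Ex5 and 3 lower (Farsa, Kars and Rars), with differences of -0.069 to 0.19 log2. The 12 called are near the background, since 55.1% of all tested genes differed in level. Without the first 4 time points the level differences of Farsa (-0.044 log2), Kars (-0.043) and Rars (-0.053) kept their sign and missed the threshold. Sars, for serine, was the exception in separation, with 389, 424 and 456 CPM in Ex4 and 458, 479 and 505 CPM in Ex5. No Ex5 library overlapped with Ex4, and the level difference was 0.17 ± 0.018 log2 (edgeR, adjusted p = 1.96e-10). Sars rose in Ex4 (0.052 ± 0.017, edgeR, adjusted p = 0.0165), though not without its first library (0.0738) or within minutes 165 to 405 (0.0675). Without the first 4 time points of each course the Ex4 slope of Sars was 0.038 (edgeR, adjusted p = 0.312). Vars rose in both courses (0.060 ± 0.023 and 0.11 ± 0.021), and its Ex4 rise was lost without any 1 of 7 libraries, up to an adjusted p of 0.187 without the Ex4 library of time point 1 (edgeR). That rise also missed the threshold in 6 of 10 other settings, among them without the first 4 time points (edgeR, adjusted p = 0.341).

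**Figure D3:**
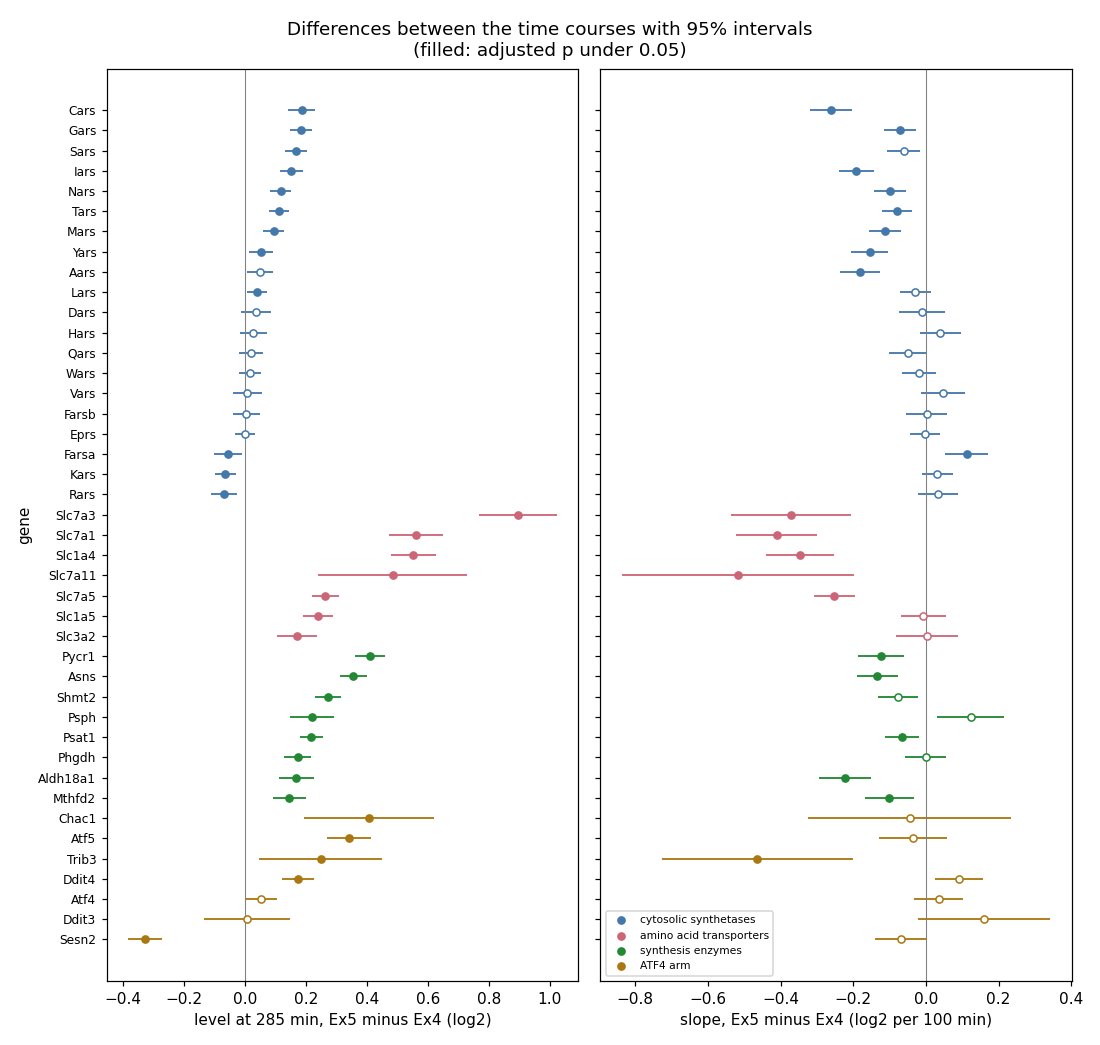
Level difference at 285 min (left, log2) and slope difference (right, log2 per 100 min), both Ex5 minus Ex4, for the 42 genes grouped by role, with unadjusted 95% intervals; filled points passed the adjusted threshold of 0.05. All transporters and synthesis enzymes lie right of 0 on the left panel, and 19 of the 20 filled points on the right panel lie left of 0.

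In the ATF4 arm, 1 gene rose and 3 fell in Ex5, 1 of 7 had a slope difference, and 4 were higher and 1 lower in Ex5 at 285 min. Over all tested genes, 51.2% changed in Ex5 and 16.1% had a slope difference, so both counts are near the general share. In level, 27.4% of all tested genes were higher in Ex5 and 27.7% lower. The Atf4 mRNA was at 208, 242 and 253 CPM in Ex4 and 229, 246 and 276 CPM in Ex5, so the ranges overlapped. From 255 to 325 min, however, every Ex5 library (259 to 276 CPM) lay above the highest Ex4 library. In Ex5 Atf4 thus rose and then fell, a course that a straight line does not follow. Its slope difference was 0.035 ± 0.033 log2 per 100 min (95% interval -0.032 to 0.10, edgeR, adjusted p = 0.51) and its level difference 0.052 ± 0.026 (edgeR, adjusted p = 0.0832). Atf5, a related factor under the same kind of translational control, was at 22.3, 26.4 and 29.5 CPM in Ex4 and 27.3, 33.0 and 38.8 CPM in Ex5. Its level difference was 0.34 ± 0.036 log2 (1.27-fold, edgeR, adjusted p = 1.87e-10) and its slope difference -0.037 ± 0.046. Without the first 4 time points of each course Atf4 was higher in Ex5 too, by 0.078 log2 (edgeR, adjusted p = 0.0214).

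Trib3, a pseudokinase that feeds back on ATF4, was scarce, with 15 to 68 counts per library. It was at 0.974, 1.32 and 1.96 CPM in Ex4 and 0.854, 1.72 and 2.58 CPM in Ex5, highest in the first Ex5 library, and it was the only gene of the arm with a slope difference past the test (-0.46 ± 0.13 log2 per 100 min, edgeR, adjusted p = 0.0123). Chac1, which degrades glutathione, was at 1.16, 1.79 and 2.48 CPM in Ex4 and 1.13, 2.22 and 3.38 CPM in Ex5. It fell in Ex5 (-0.28 ± 0.096, edgeR, adjusted p = 0.0144) and had a slope of -0.23 ± 0.10 in Ex4 (edgeR, adjusted p = 0.0787), and the slope difference was -0.045 ± 0.14 with an interval from -0.32 to 0.23. Ddit3 (CHOP), a factor of prolonged stress, stayed at 2.58, 3.36 and 3.83 CPM in Ex4 and 2.33, 3.35 and 4.32 CPM in Ex5. No test passed for Ddit3 with all libraries, its Ex5 slope being 0.14 ± 0.066 log2 per 100 min (edgeR, adjusted p = 0.0746). That slope passed without the Ex5 library of time point 7 or 14 (edgeR, adjusted p = 0.0468 and 0.0204).

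Sesn2 is a stress-induced leucine sensor that restrains mTORC1, and with Farsa, Kars and Rars it was 1 of 4 members lower in Ex5 at 285 min. It was at 119, 127 and 136 CPM in Ex4 and 90.5, 99.8 and 115 CPM in Ex5, so that all Ex4 libraries lay above all Ex5 libraries. The level difference was -0.33 ± 0.028 log2, or 0.797-fold (edgeR, adjusted p = 7.12e-13). Sesn2 fell in Ex5 (-0.086 ± 0.025 log2 per 100 min, edgeR, adjusted p = 0.0048), but not without the first 4 time points (-0.0088, edgeR, adjusted p = 0.86). Among the 42 genes, Sars, Slc1a4, Shmt2 and Pycr1 were above Ex4 in every Ex5 library (1.61% of all tested genes were) and Sesn2 alone was below (1.92% of all tested genes).

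Ddit4 (REDD1), another brake on mTORC1 that also answers to hypoxia and glucocorticoids, was at 346, 379 and 436 CPM in Ex4 and 363, 431 and 485 CPM in Ex5. Its Ex5 minimum was the library at 285 min, between the Ex4 libraries at 275 and 292 min (352 and 372 CPM). The fitted level of Ddit4 at 285 min was 1.13-fold higher in Ex5. It rose in Ex5 by 0.062 ± 0.023 log2 per 100 min (edgeR, adjusted p = 0.0248), a call that rested on the last library, since without it the adjusted p was 0.376. Ddit4 was also the only member that followed the Hes7 cycle of 135 min past the test, where 1.32% of all tested genes did. The fitted peak was 1.12-fold over the trough and stood at -12.2 min from that of Hes7, that is, earlier (edgeR, adjusted p = 0.0351). It missed the threshold without any 1 of 13 libraries, with an adjusted p of up to 0.0869 without the Ex5 library of time point 9, and with a period of 120 min (0.153). For the other 41 members no rhythm passed the edgeR test (4 of the 42 genes had an unadjusted p under 0.05, and 1 passed with DESeq2), and the fitted peak-to-trough folds of the synthetases were at most 1.08.

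Where in the courses the time courses differed was read from 3 windows of 4 libraries each, as means ± SD over those 4 time points. The first 4 libraries covered 155 to 200 min in Ex4 and 165 to 210 min in Ex5, the middle 4 covered 245 to 292 and 255 to 305 min, and the late 4 were the minutes that both courses share (345, 365, 385 and 405). The ratio of Ex5 to Ex4 had a median over the 42 genes of 1.15 in the first window, 1.11 in the middle and 1.03 in the late one, with 31, 34 and 24 genes above 1. Over all tested genes the median ratio stayed at 0.994, 1.00 and 0.997, with 5691, 5918 and 5718 of 11768 genes above 1. Among the transporters the median ratio went from 1.60 through 1.30 to 1.13, among the synthesis enzymes from 1.25 through 1.22 to 1.13, and among the synthetases from 1.03 through 1.04 to 0.982. In the ATF4 arm the median was 1.05, 1.11 and 1.06, but its genes moved in opposite directions. From the first to the late window the ratio went down for Trib3 (1.40 to 0.822), Chac1 (1.15 to 0.943) and Sesn2 (0.864 to 0.766). It went up for Atf4 (0.984 to 1.06), Ddit3 (0.894 to 1.15) and Ddit4 (1.05 to 1.21), and Atf5 was at 1.21 and 1.22.

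Slc7a1 had 34.7 ± 2.57 CPM in Ex4 and 73.9 ± 11.2 CPM in Ex5 in the first window, a ratio of 2.13, and 33.3 ± 0.275 and 37.7 ± 2.27 CPM in the late window, a ratio of 1.13. Slc7a5 went from 141 ± 4.98 and 203 ± 9.79 CPM to 143 ± 6.12 and 143 ± 1.66 CPM, so the 2 courses met. Cars went from 99.3 ± 3.45 and 134 ± 3.52 CPM to 97.2 ± 3.65 and 92.6 ± 2.07 CPM. Slc7a5 and Cars thus came down to or below the Ex4 level late in Ex5, and Slc7a1 came down toward it, with all 4 late Ex5 libraries still above the 4 late Ex4 libraries. Slc1a4 kept a gap, with 76.8 ± 4.62 CPM in Ex4 and 95.3 ± 2.52 CPM in Ex5 in the late window, and so did Pycr1 (84.3 ± 4.62 and 101 ± 3.96 CPM) and Atf5 (25.4 ± 2.11 and 31.0 ± 2.62 CPM). For Sesn2 the ratio was 0.864 in the first window and 0.766 in both later ones. Without the first 4 time points of each course, a choice made after the data were seen, 15 members still had a slope difference, all negative, where 4.26% of all tested genes had one.

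**Figure D4:**
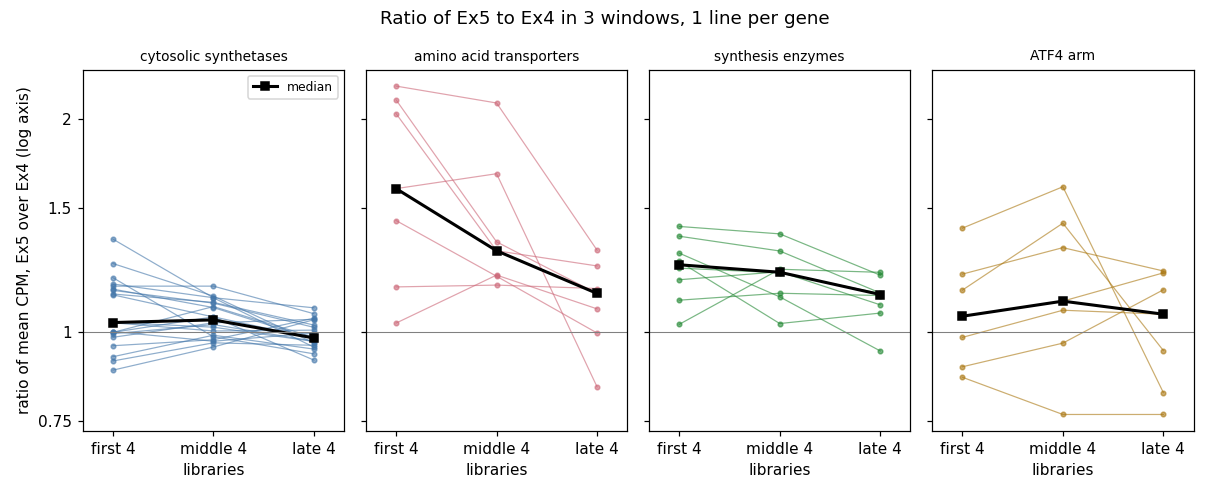
Ratio of mean CPM, Ex5 over Ex4 (y axis, log scale), in the first 4, middle 4 and late 4 libraries (x axis), 1 line per gene and 1 panel per role; black squares are the medians of each role. The transporter median falls from 1.60 to 1.13, whereas the synthetase median lies between 0.982 and 1.04.

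Levels of different genes were compared per kilobase of exon. In Ex4 the highest medians were those of Ddit4 (216 CPM per kb), Phgdh (172), Kars (168), Psat1 (151) and Atf4 (140), and the lowest those of Slc7a11 (0.097), Trib3 (0.652), Chac1 (1.09), Slc7a3 (1.56) and Slc7a1 (4.64). The Ex4 ranges of Phgdh, Kars and Psat1 overlapped across libraries, as did those of Psat1 and Atf4. Among the lowest, the range of Chac1 overlapped with those of Trib3 and Slc7a3. The order of the genes in these overlaps does not hold beyond the spread. The synthetases spanned 30.6 (Cars) to 168 (Kars) CPM per kb in Ex4, a narrow range beside the transporters, which spanned 0.097 to 45.7 (Slc3a2). Ddit3 has 2 gene records in the annotation and was given no length. The genes with the widest slope differences, Slc7a11, Trib3, Slc7a1 and Slc7a3, were thus among the 5 scarcest per length, and the standard errors of the slope difference were widest for Slc7a11, Chac1 and Trib3.

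**Figure D5:**
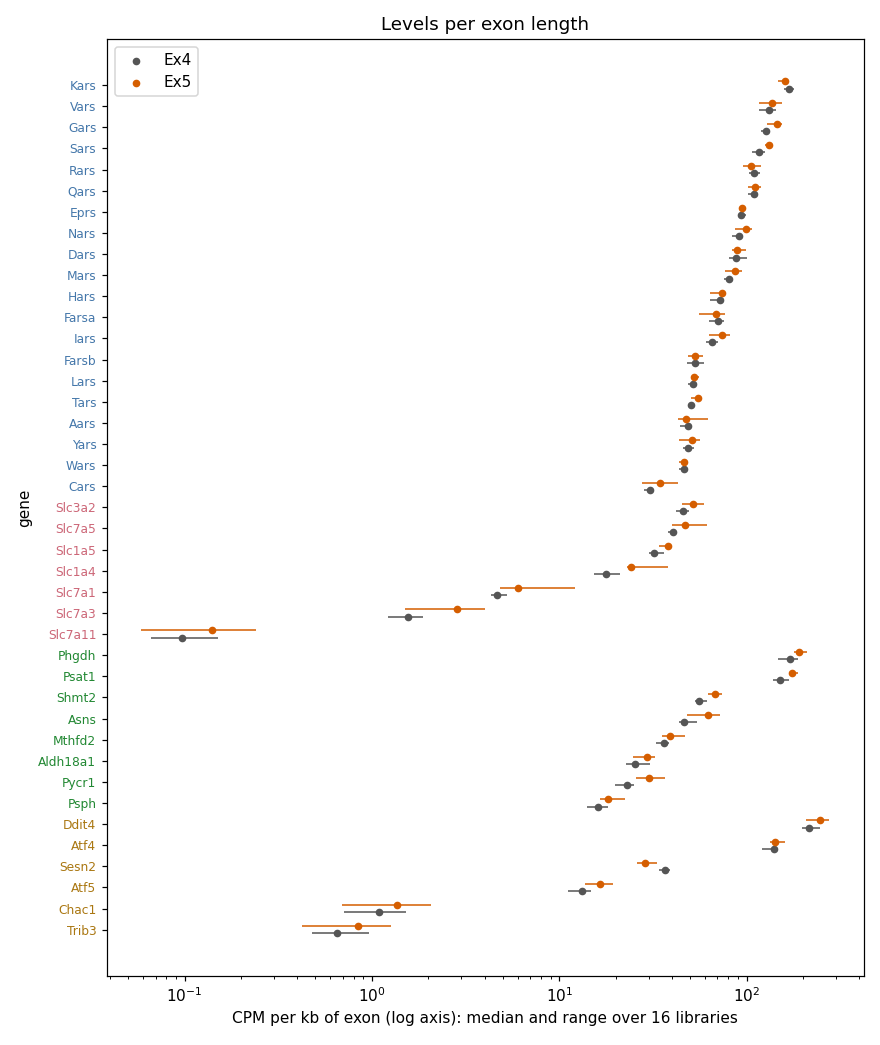
CPM per kb of merged exon length (x axis, log scale) for 41 members (y axis, names coloured by role as in the plot of slopes), as the median (points) and the range over 16 libraries (lines), Ex4 in grey and Ex5 in orange. The synthetase medians in Ex4 lie between 30.6 and 168 CPM per kb, and Slc7a11, Trib3, Chac1, Slc7a3 and Slc7a1 lie lowest.

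Other genes of the pathway were counted from lists that share no gene with the 42. Their counts stand beside shares over all tested genes of 9.06% with a negative and 7.02% with a positive slope difference, and 27.4% higher and 27.7% lower in level; no list was tested against another. Of 17 mitochondrial synthetases, 1 had a negative slope difference, 3 were higher and 3 lower in level. Of 16 genes for eIF2, its kinases and its regulators, only Eif2ak4, which encodes GCN2, had a slope difference (-0.090 ± 0.029, edgeR, adjusted p = 0.0283). Eif2ak4 was higher in Ex5 at 285 min by 0.17 ± 0.022 log2. In level, 3 of the 16 were higher in Ex5 and 4 lower. Of 15 further ATF4 targets tested, 4 had a slope difference, all negative: the glycine carrier Slc6a9 (-0.30 ± 0.074), the transaminase Gpt2 (-0.21 ± 0.046), the tRNA exporter Xpot (-0.092 ± 0.020) and the glutamine carrier Slc38a2 (-0.086 ± 0.029). In level, 11 of the 15 were higher in Ex5 and 2 lower, with Aldh1l2 (0.99 ± 0.13 log2), Stc2 (0.92 ± 0.050) and Jdp2 (0.77 ± 0.080) widest; Aldh1l2 was counted at 6 to 46 reads per library.

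Of 15 other amino acid transporters tested, 4 had a negative slope difference and 1 a positive one, with Slc1a2 (-0.32 ± 0.089 log2 per 100 min) and Slc43a2 (-0.25 ± 0.049) widest among the negative ones. In level, 5 were higher and 6 lower in Ex5. Of 13 genes of the ER unfolded protein response, 0 had a slope difference past the test by edgeR or DESeq2 (4 positive and 0 negative at an unadjusted p under 0.05). In level, 7 were higher in Ex5 and 0 lower by both tools (8 and 0 unadjusted), among them the transcription factor Xbp1 (0.49 ± 0.050 log2). In 10 genes of one-carbon and glycine metabolism, 4 had a positive and 1 a negative slope difference, and in level 3 were higher in Ex5 and 4 lower. In 17 genes of amino acid sensing by mTORC1, 2 slope differences were positive (Rragc and Rragd) and 1 negative (Rptor). In level, 3 of these 17 were higher in Ex5 and 7 lower.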

How the data were processed

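The authors deposited 1 matrix of raw counts of reads by gene symbol for 32 libraries, 1 per dish. The submitters' processing notes name HTSeq 0.6.1, HISAT2 2.1.0, cutadapt 1.14 and bcl2fastq 2.17.1.14, and the genome build mm10. The library kit was strand-specific, per the labels' protocols. Which annotation was counted, and with which strand setting, is not given in the sources used here. Columns were matched to samples through the sample descriptions, and 0 columns were unused. Of 21886 genes, 3706 were at 0 in all libraries, and 0 pairs of libraries were identical. The 42 genes, the further lists and the tests were chosen with earlier results of these data known.

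Genes with at least 1 CPM (TMM factors) in at least 16 libraries (11768) were fitted with edgeR 4.0.16 in R 4.3.3 by quasi-likelihood, with a level and a slope per time course, time centred at 285 min, and a shared cosine and sine of the Hes7 phase. That phase came from a least-squares fit of Hes7 with a common period, searched from 90 to 240 min. Each contrast was adjusted by Benjamini-Hochberg over all tested genes, with a threshold of 0.05. Each time point has 1 library per time course, so the spread is that of libraries around the fitted lines. Genes given with their values were, per test, the 5 called members with the smallest p, the ATF4 arm, Asns, Psat1, Phgdh, Slc7a11, Slc7a5 and Slc3a2, and other members followed by role. From the further lists, some of the called genes with the widest differences were named. Not every called gene or every list is given. Some items are not reported here.

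Exon lengths and positions come from GENCODE M21 (GRCm38, the assembly of mm10), from the basic protein-coding transcripts of 41 members, and promoters from RefSeq (GRCm38.p6; 31 members matched). The procedure was tested on simulated counts. Alternatives were DESeq2 1.42.0, other size factors, filters, trends, periods and time ranges, the time point number as a block, and each library left out. Leaving out the first 4 time points was added after the data were seen. Time points of the same number pair no dishes by the labels, and their deviations did not correlate (median r = -0.0238 over 16 pairs).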

Additional observations from a re-analysis of the deposited data

Results flagged for a closer look

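The slope over time differed between Ex5 and Ex4 by the test of the difference itself for 20 of the 42 genes, and each value below is Ex5 minus Ex4 in log2 per 100 min. Among the transporters these were Slc7a11 (-0.52), Slc7a1 (-0.41), Slc7a3 (-0.37), Slc1a4 (-0.35) and Slc7a5 (-0.25). Among the enzymes of synthesis they were Aldh18a1 (-0.22), Asns (-0.13), Pycr1 (-0.12), Mthfd2 (-0.10) and Psat1 (-0.066). The synthetases were Cars (-0.26), Iars (-0.19), Aars (-0.18), Yars (-0.15), Mars (-0.11), Nars (-0.099), Tars (-0.081) and Gars (-0.071), and with the opposite sign Farsa (0.11). In the ATF4 arm Trib3 alone was past the test (-0.46). All 5 transporters and Trib3 combined a fall in Ex5 with a slope in Ex4 that was positive or did not pass the test.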

How the results depend on the processing

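Under the alternatives the count of members past the test stayed within 5 to 8 for the slope in Ex4, 22 to 27 for the slope in Ex5, 15 to 25 for the slope difference and 29 to 34 for the level difference. Leaving out 1 library at a time gave 5 to 8, 25 to 28, 18 to 23 and 29 to 33. The single rhythmic member (Ddit4) was lost without Ex4 time points 1 and 16 (0 genes) and with a period of 120 min (0 genes), and 2 genes passed with a quadratic trend; without 1 library the count ran from 0 to 3. Among the called values, only the slope difference of Mthfd2 turned its direction, to 0.0024 without the first 4 time points. Of the called members, 2 of 7 (slope in Ex4), 19 of 26 (slope in Ex5), 13 of 20 (slope difference), 26 of 32 (level) and 0 of 1 (rhythm) passed in every setting run. Without the first 4 time points, the slope difference was called for 15 members and for 501 of all tested genes in place of 1892, the slope in Ex5 for 3636 in place of 6025, the slope in Ex4 for 1736 in place of 3820, and rhythm for 95 in place of 155. That fit has fewer libraries. With the time point number as a replicate block, 20 slope differences were called (18 shared with the unblocked fit, without Psat1 and Mthfd2) and 31 level differences. The numbers pair no dishes: deviations of same-numbered libraries correlated at -0.16 to 0.146, 4 of 16 pairs over 0.1, and 0 libraries correlated best with their own number. At a filter of 5 CPM, 38 members were tested, and depth limits what can be said of Slc7a11, Trib3, Chac1 and Ddit3.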
